A study of Homo sapiens with 9 samples.

Results

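The Fc receptor-like genes of B cells described here were FCRL1, FCRL2, FCRL3, FCRL5, FCRLA and FCRLB, which are 6 of the 60234 genes in the deposited count table and were found by matching each Ensembl gene ID to its symbol. They were followed in Ramos, an EBV-negative Burkitt lymphoma line of human B cells. RNA was sequenced from untreated cells (0 h) and from cells given CHIR99021, an inhibitor of the kinase GSK-3, at 3 µM for 3 h or 6 h, with 3 biological replicates at each time, numbered 1, 2 and 3 at 0 h, 5, 6 and 7 at 3 h and 9, 10 and 11 at 6 h. No untreated cells at 3 h or 6 h were analysed, so the inhibitor and the time in culture cannot be told apart, and all data come from 1 cell line. The time course of FCRL5, flat at 3 h and high at 6 h, was one of the measured values the set was chosen by, so its levels are given as a description, without a test. The other 5 genes share the family name, as do FCRL4 and FCRL6, which had no read and are not in the set.

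Fc receptor-like proteins are relatives of the classical receptors for the constant part of antibodies. FCRL1 to FCRL5 are membrane proteins of B cells with immunoglobulin-like domains outside the cell and tyrosine motifs inside it, some activating (ITAM-like) and some inhibitory (ITIM), through which they tune signals from the B cell receptor. FCRLA and FCRLB lack a membrane anchor, stay inside the cell and are expressed mostly in B cells of the germinal centre, the cells that Burkitt lymphoma resembles.

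The 100 bases before each RefSeq transcription start (GRCh38.p14) are printed because the 6 genes lie in 2 short stretches of chromosome 1 and differed in their time courses. Each is written 5′ to 3′ on the strand of the gene, and capitals mark 3 short patterns on either strand: the ETS core GGAAGT (reverse ACTTCC), the TCF/LEF core CTTTGAT (reverse ATCAAAG), read by the partners of beta-catenin, a substrate of GSK-3, and the octamer ATGCAAAT (reverse ATTTGCAT).
FCRL5, chr1:157552516-157552615, minus strand: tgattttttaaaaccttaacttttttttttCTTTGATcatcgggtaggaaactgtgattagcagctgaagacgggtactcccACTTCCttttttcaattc
FCRL2, chr1:157777133-157777232, minus strand: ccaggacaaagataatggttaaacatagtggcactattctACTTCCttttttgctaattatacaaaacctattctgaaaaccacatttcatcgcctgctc
FCRL1, chr1:157820121-157820220, minus strand: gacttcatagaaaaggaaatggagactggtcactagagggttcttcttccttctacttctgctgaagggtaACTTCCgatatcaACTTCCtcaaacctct
FCRL3, chr1:157700770-157700869, minus strand: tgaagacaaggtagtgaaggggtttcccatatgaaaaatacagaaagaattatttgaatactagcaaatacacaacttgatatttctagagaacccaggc
FCRLA, chr1:161707129-161707228, plus strand: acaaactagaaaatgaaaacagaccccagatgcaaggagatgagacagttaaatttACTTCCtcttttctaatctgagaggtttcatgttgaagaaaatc
FCRLB, chr1:161721444-161721543, plus strand: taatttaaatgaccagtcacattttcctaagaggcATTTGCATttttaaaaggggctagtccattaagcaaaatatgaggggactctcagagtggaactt

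The ETS core stood in the windows of FCRL5, FCRL2, FCRL1 and FCRLA, and 10.4% of the 34943 RefSeq windows hold it within the same 100 bases. It began 18 bases before the start of FCRL5, 60 before FCRL2, 29 and 16 before FCRL1 and 44 before FCRLA. The TCF/LEF core, present in 0.790% of all such windows, stood 70 to 64 bases before the start of FCRL5, and FCRL1 held it farther upstream, 244 to 238 bases before its start. The octamer stood 65 to 58 bases before the start of FCRLB, for which RefSeq lists 3 windows and the most upstream is shown. Over the full 250 upstream bases, 19.5% of windows hold the ETS core, 2.27% the TCF/LEF core and 1.63% the octamer. In the 8 windows of the 6 genes, the E-box CACGTG, read by MYC and its partners (6.32% of all windows) and the pair GAANNTTC (5.80%) were not found, nor was the ETS-IRF composite pattern (2.41%). Both strands were searched, the ETS core can lie inside the ETS-IRF composite, and none of the matches named here overlap. The patterns were picked after the windows had been read, and a match describes sequence only.

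The libraries held between 46359911 and 52880876 reads assigned to genes, so 3 reads in a library corresponded to 0.0516 to 0.0692 CPM (a gene's reads relative to all reads in genes of its library, scaled by TMM factors). Of the 60234 genes, 28412 had a read and 15847 had enough reads to be tested. All 8 B cell markers were expressed, with summed levels of 2549 to 2582 CPM at 0 h, 2475 to 2580 at 3 h and 2567 to 2718 at 6 h. None of the 8 T and NK cell markers in the table and none of the 8 myeloid markers had enough reads to be tested, and CD3D, CD8A, NCR1, S100A8, S100A9 and FCGR1A had no read. At 6 h, replicate 10 stood apart: 9.95% of tested genes were at least 30% above the mean of the other 2 libraries of that time, against 5.04% in replicate 9 and 4.92% in replicate 11, and 17.6% of its reads fell outside annotated genes, against 15.04% and 16.2%. At 0 h, replicate 3 also differed, with 6.97% of tested genes at least 30% above the other 2, against 3.81% in replicate 1 and 3.53% in replicate 2. It was highest of its time in 44.1% of tested genes, and 67.6% of its reads fell in genes, against 69.8% and 69.9%.

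**Figure D1:**
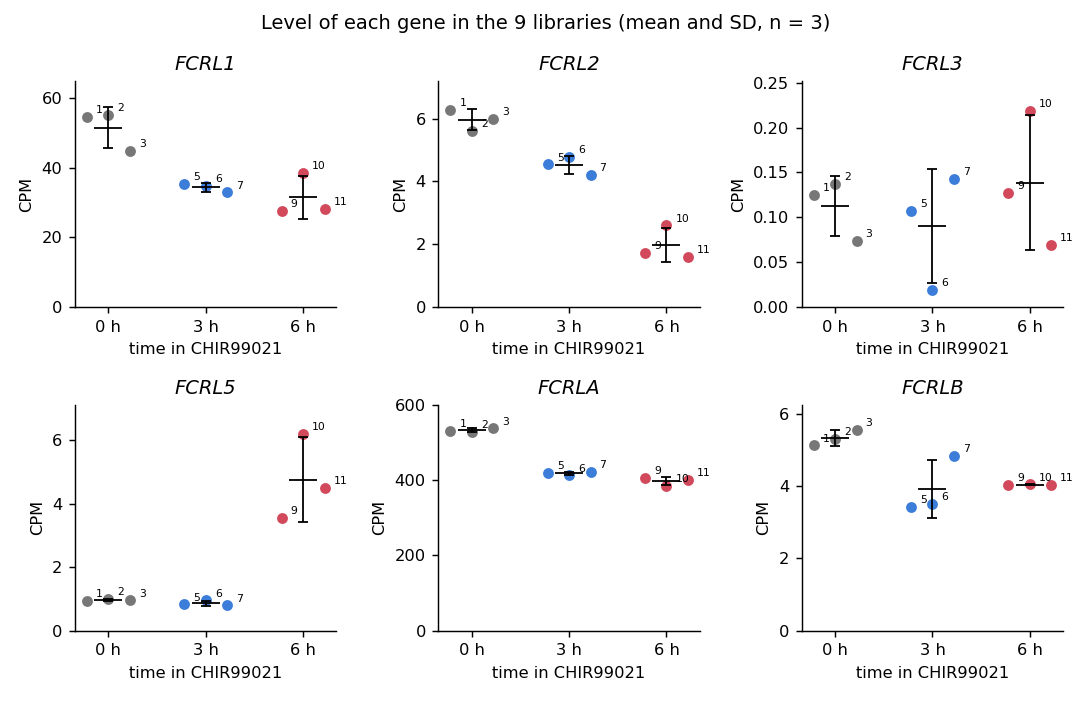
Level of each Fc receptor-like gene (CPM, linear axes that start at 0 and differ between panels) in each library by hours in CHIR99021. Points are libraries with their replicate numbers, and bars are the mean and SD of 3 libraries. FCRL5 lies between 3.55 and 6.19 CPM at 6 h and below 1.1 at the earlier times, while FCRL2 lies between 1.59 and 2.60 at 6 h and above 4 before.

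FCRL5, which binds IgG and carries both ITIM and ITAM-like motifs, was a low-level transcript for the first 3 h and was read several times more often at 6 h. It had 53, 59 and 52 reads at 0 h (0.948, 1.01 and 0.964 CPM), 39, 49 and 39 at 3 h (0.836, 0.959 and 0.796 CPM) and 167, 283 and 195 at 6 h (3.55, 6.19 and 4.50 CPM). The 0 h and 3 h libraries overlapped, and every 6 h library was above all 6 others. The means were 0.976 ± 0.0347, 0.864 ± 0.0849 and 4.75 ± 1.34 CPM (SD, n = 3 each). At such read numbers an SD of 3 libraries can fall below the counting scatter. The log2 fold change was -0.17 (SE 0.241) at 3 h against 0 h, 2.28 (SE 0.190, 4.85-fold higher) at 6 h against 0 h and 2.45 (SE 0.199, 5.47-fold higher) at 6 h against 3 h. By size, the last of these was number 8 from the top of the 15847 genes tested, and the change from 0 h was number 79. These ranks come from values the set was chosen by, so they are a description only. The highest of the 6 h values came from replicate 10, and without that library the log2 fold change was 2.04 against 0 h and 2.21 against 3 h.

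FCRL2, a receptor with ITIM and ITAM-like motifs known from memory B cells, fell at both steps and most between 3 h and 6 h. Its levels were 6.28, 5.61 and 5.99 CPM at 0 h, 4.55, 4.78 and 4.21 at 3 h and 1.72, 2.60 and 1.59 at 6 h, from 351, 326 and 323 reads at 0 h down to 81, 119 and 69 at 6 h. No library of 1 time overlapped those of another. By edgeR's quasi-likelihood test, with Benjamini-Hochberg adjustment over all tested genes, the log2 fold change was -0.40 at 3 h (SE 0.126, adjusted p = 0.0124), -1.59 at 6 h against 0 h (SE 0.143, adjusted p = 2.07e-07, 3.01-fold lower) and -1.19 at 6 h against 3 h (SE 0.148, adjusted p = 2.62e-05, 2.28-fold lower). The 3 h step was the least secure, since without 3 h replicate 7 it was -0.35 with an edgeR adjusted p of 0.0562. In these bulk samples, fewer cells with a transcript and less of it per cell cannot be told apart.

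FCRL1, an activating co-receptor of the B cell receptor with ITAM-like motifs, fell within 3 h and had no further change that passed the test. Its levels were 54.6, 55.2 and 44.8 CPM at 0 h, 35.4, 34.9 and 33.0 at 3 h and 27.6, 38.5 and 28.2 at 6 h. All treated libraries were below all untreated ones, and the 3 h and 6 h libraries overlapped. The edgeR log2 fold change was -0.58 at 3 h (SE 0.123, adjusted p = 0.00177, 1.497-fold lower) and -0.71 at 6 h against 0 h (SE 0.124, adjusted p = 0.000419, 1.64-fold lower). Between 3 h and 6 h it was -0.13 (SE 0.126, edgeR adjusted p = 0.441), but without 6 h replicate 10, the one high library of that time, it was -0.30 with an edgeR adjusted p of 0.0206.

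FCRLA, an intracellular protein that binds immunoglobulin in the endoplasmic reticulum, was by far the most abundant of the set and fell by a modest amount, with replicates close together. Its levels were 530.5, 527.7 and 538.0 CPM at 0 h, 419.3, 413.0 and 421.6 at 3 h and 406.9, 384.8 and 401.3 at 6 h. The 3 times did not overlap. The edgeR log2 fold change was -0.35 at 3 h (SE 0.0430, adjusted p = 6.7e-06, 1.27-fold lower) and -0.42 at 6 h against 0 h (SE 0.0431, adjusted p = 8.44e-07, 1.34-fold lower). From 3 h to 6 h it was -0.07 (SE 0.0431, edgeR adjusted p = 0.199). The SE does not cover the choice of scaling. Over all alternative fits the change against 0 h ran from -0.55 to -0.33 at 3 h and from -0.66 to -0.39 at 6 h.

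FCRLB, the intracellular relative next to FCRLA, also fell within 3 h. Its levels were 5.13, 5.31 and 5.56 CPM at 0 h, 3.43, 3.50 and 4.84 at 3 h and 4.04, 4.05 and 4.04 at 6 h. All treated libraries were below the untreated ones, 3 h replicate 7 was well above the other 2 of its time, and the 6 h libraries were nearly equal. The edgeR log2 fold change was -0.44 at 3 h (SE 0.117, adjusted p = 0.00412, 1.36-fold lower) and -0.40 at 6 h against 0 h (SE 0.117, adjusted p = 0.00745, 1.32-fold lower). Between 3 h and 6 h it was 0.04 (SE 0.122, edgeR adjusted p = 0.808).

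FCRL3, a receptor with both kinds of motif, was barely detected and had too few reads to be tested. It had 7, 8 and 4 reads at 0 h, 5, 1 and 7 at 3 h and 6, 10 and 3 at 6 h, and the times overlapped. A difference between the times was not detectable at this depth. An annotated antisense gene overlaps FCRL3 and had no read in any library. The family's other genes, FCRL4, a receptor of tissue memory B cells, and FCRL6, known from cytotoxic T and NK cells, had no read in any of the 9 libraries.

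Of the 4 tested genes other than FCRL5, all 4 were lower at 3 h than at 0 h, where 66.3% of all tested genes passed the test, 33.5% lower and 32.8% higher. The same count of 4 lower and 0 higher was found at 6 h against 0 h, where 70.8% of tested genes passed it, 35.0% lower and 35.7% higher. Both comparisons use the same untreated libraries. Between 3 h and 6 h only FCRL2 of these 4 passed the edgeR test, and it was lower, against 43.4% of all tested genes that passed, 21.9% lower and 21.5% higher. Ordered from the lowest log2 fold change, FCRL2 was number 229 of 15847 in that comparison and number 884 at 6 h against 0 h, while FCRL1, FCRLA and FCRLB stood at number 3114, 4603 and 4715 at 6 h against 0 h.

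The reads of the 6 genes together came to 595 to 598 CPM at 0 h, 457 to 465 at 3 h and 436 to 444 at 6 h, and FCRLA gave 88.2% to 91.7% of them in each library. Levels of different genes were compared per length, as CPM per kilobase of annotated exon (RPKM). At 0 h, FCRLA was at 162 ± 1.62 RPKM (SD, n = 3 here and below), FCRL1 at 13.1 ± 1.49, FCRLB at 2.06 ± 0.0827, FCRL2 at 1.18 ± 0.0668, FCRL5 at 0.0786 ± 0.00279 and FCRL3 at 0.0172 ± 0.00514, with no overlap between neighbours in that order. At 6 h the order began in the same way with FCRLA at 121 ± 3.52, FCRL1 at 7.99 ± 1.56 and FCRLB at 1.56 ± 0.00242 RPKM. FCRL2, at 0.390 ± 0.109 RPKM, and FCRL5, at 0.382 ± 0.108, were then within each other's spread, and FCRL3 was last at 0.0212 ± 0.0115. The small SD of FCRLB at 6 h came from 190, 185 and 175 reads and is not the precision of its level, since counting scatter is larger. The exon length used for FCRL5 was 12.4 kb, the union of all its annotated transcripts, against 5.06 kb for FCRL2, so its RPKM is low if shorter transcripts are the ones present.

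The balance between the receptors differed by time within each library. For every 100 reads of FCRL2 there were 15.1 to 18.1 reads of FCRL5 at 0 h, 18.4 to 20.1 at 3 h and 206 to 283 at 6 h. For every 100 reads of FCRL1 there were 10.2 to 13.4 reads of FCRL2 at 0 h, 12.8 to 13.7 at 3 h and 5.64 to 6.76 at 6 h. The intracellular pair kept a narrower ratio, with 0.968 to 1.03 reads of FCRLB per 100 reads of FCRLA at 0 h, 0.818 to 1.15 at 3 h and 0.993 to 1.05 at 6 h.

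In the FCRL1 to FCRL5 cluster, FCRL1, FCRL2 and FCRL5 shared 1 departure within a group. In 6 h replicate 10, FCRL1 was at 138% of the mean of the other 2 libraries of its time. FCRL2 was at 157% and FCRL5 at 154%, so genes lower and higher at 6 h than before were all highest there. Of all tested genes, 9.95% were at least at 130% in that library. FCRL3 was at 222% there from 10 reads, but it was also at 225% in 3 h replicate 7, so its value cannot be told from counting scatter. In 6 h replicate 10, FCRLA, at 95.2%, was lowest of its time and FCRLB was at 100%. The part of this library's higher share of reads outside genes in these values was not tested. Across the 9 libraries, Pearson's r of log2 CPM was 0.80 for FCRL1 and FCRL2, 0.84 for FCRL1 and FCRLA, 0.81 for FCRLA and FCRLB and -0.87 for FCRL2 and FCRL5; the 9 points share the 3 times and each library's scaling.

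**Figure D2:**
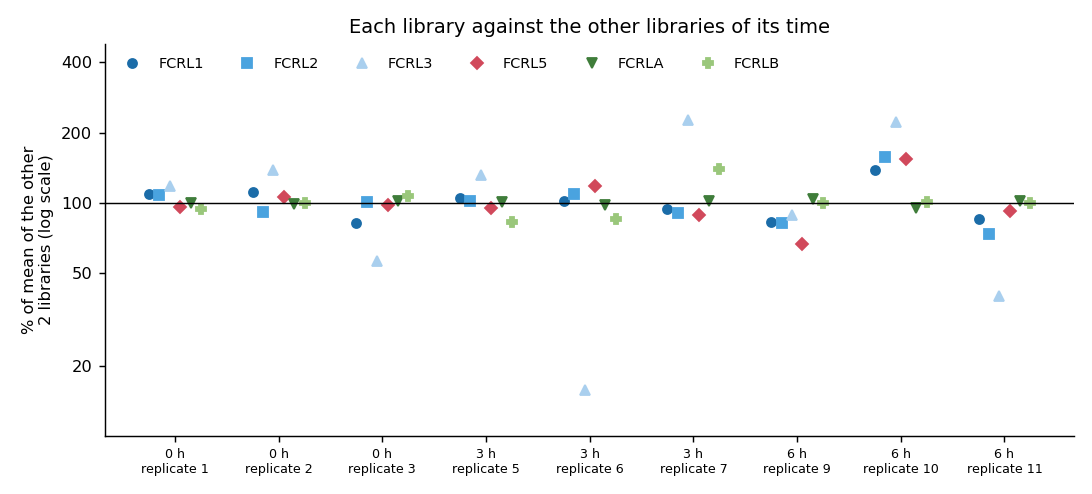
Level of each Fc receptor-like gene in each library as a percentage of the mean of the other 2 libraries of the same time (log axis, line at 100%). In 6 h replicate 10, FCRL1, FCRL2, FCRL3 and FCRL5 lie between 138% and 222% and FCRLA and FCRLB at 95.2% and 100%, and the widest scatter belongs to FCRL3, which has at most 10 reads in a library.

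In RefSeq's order the cluster runs FCRL5, FCRL4, FCRL3, FCRL2, FCRL1, so that FCRL2 lies between FCRL3, which was barely detected, and FCRL1. The nearest expressed neighbour, ETV3, a transcriptional repressor of the ETS family beside FCRL5, had a different course: it rose from 19.5 CPM at 0 h to 41.3 at 3 h (log2 fold change 1.08, edgeR adjusted p = 7.51e-09) and was at 34.1 at 6 h (0.81 against 0 h, edgeR adjusted p = 1.19e-07). On the far side of FCRL1, CD5L was close to 0. FCRLA and FCRLB lie between FCGR2B and DUSP12. DUSP12, a dual-specificity phosphatase, rose from 28.8 CPM to 35.7 at 3 h and 38.0 at 6 h (log2 fold change 0.40 at 6 h, edgeR adjusted p = 4.34e-05), and ATF6, a sensor of endoplasmic reticulum stress, was at 41.4 CPM at 0 h and 46.2 at 6 h (0.16, edgeR adjusted p = 0.0571). ETV3 and DUSP12 were thus higher at both times at which FCRL1, FCRL2, FCRLA and FCRLB were lower.

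**Figure D3:**
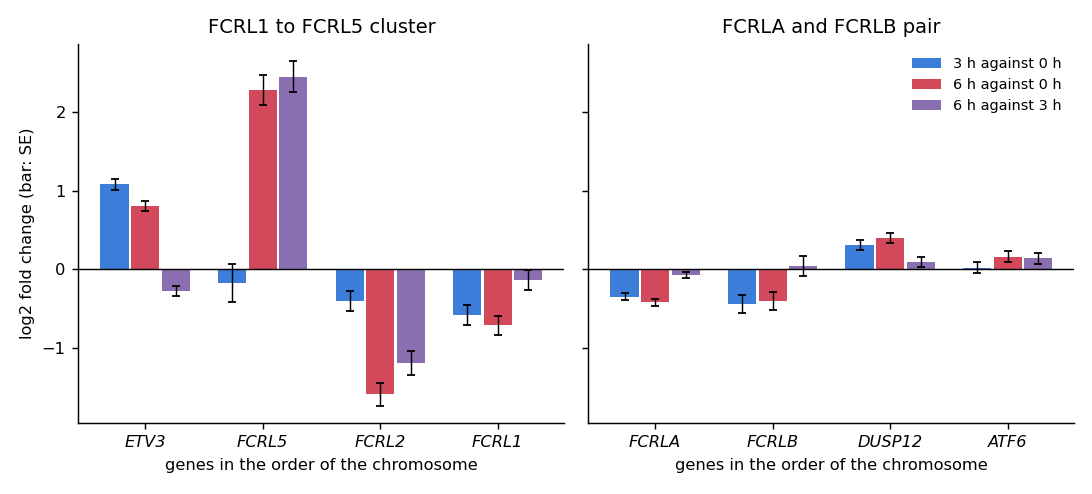
Fitted log2 fold changes (bars, with the SE as error bars) of the tested genes of both stretches of chromosome 1 in RefSeq order, for 3 h against 0 h, 6 h against 0 h and 6 h against 3 h. FCRL5 reaches 2.45 where FCRL2, in the same cluster, is at -1.19, and ETV3 and DUSP12 are above 0 at both times against 0 h.

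The genes whose log2 CPM followed a member most closely were sought among 11739 other genes with a mean of at least 1 CPM. Closest to FCRL5 over the 9 libraries were METTL3 (r = 0.991), the methyltransferase of m6A in RNA, DGKA (0.989), a diacylglycerol kinase, ALDH1A3-AS1 (0.989), CLECL1P (0.987) and MLKL (0.985), the effector of necroptosis, and their log2 fold changes at 6 h against 3 h ran from 0.57 for METTL3 to 1.45 for DGKA. Closest to FCRL2 were NLGN2 (0.995), SGSM2 (0.991), SCNN1D (0.987), MICAL1 (0.986) and GOLGA2 (0.984), of which NLGN2, at -1.07, came nearest to FCRL2 in size at that step. DNHD1 (0.996) was closest to FCRL1, ZNF277 (0.998), with DDIT4 (0.997) and TFEB (0.997), to FCRLA, and PSTPIP1 (0.954) to FCRLB. These values describe likeness over 9 libraries that share 3 times, and r does not take the size of a change into account. DNHD1 and the genes named for FCRL2 were, like FCRL1 and FCRL2, highest of their time in 6 h replicate 10, which enters r. DNHD1 was at 34.0 CPM there, against 18.4 and 21.1, and NLGN2 at 1.73, against 1.15 and 1.06. The change in FCRL5 itself at 6 h against 3 h, 2.45 on the log2 scale, was larger than those of its 5 nearest genes. That step was one the set was chosen by, so the difference is a description only.

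Among the classical Fc and immunoglobulin receptors, little was expressed, and the tested genes went both ways. Of 16 listed genes, 5 were tested and 6 had no read in any library, among them FCGR1A and FCGR2A. At 6 h against 0 h, 2 were higher and 2 lower by the edgeR test, where 35.7% of all tested genes were higher and 35.0% lower. The list median, -0.31 against 0.02 over all tested genes, was the value of LGALS3, which did not pass (edgeR adjusted p = 0.333). FCER2, the low-affinity IgE receptor CD23, rose from 0.203 ± 0.0303 CPM to 0.850 ± 0.0743 at 3 h and 1.22 ± 0.141 at 6 h (SD, n = 3), and by edgeR the 6 h level differed by 2.58 on the log2 scale (SE 0.217, adjusted p = 1.1e-07). FCMR, the receptor for the Fc part of IgM, fell from 1.84 ± 0.104 CPM to 0.780 ± 0.105 and then 0.322 ± 0.0398, which was 5.67-fold lower at 6 h by edgeR (-2.503 on the log2 scale, SE 0.183, adjusted p = 2.5e-08). TRIM21, a cytosolic antibody receptor, rose by 1.096 on the log2 scale within 3 h (edgeR adjusted p = 3.83e-09) and was 1.03 above 0 h at 6 h (edgeR adjusted p = 5.42e-09). FCGR2B, the inhibitory IgG receptor of B cells and neighbour of FCRLA, had 1 to 7 reads in each library and was not tested.

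Of 16 other ITIM receptors listed, 7 had enough reads to be tested, and 6 of these were lower and 1 higher at both 3 h and 6 h against 0 h, with medians of -0.67 and -0.63 over the 7. Among all tested genes, 33.5% were lower and 32.8% higher at 3 h, and 35.0% lower and 35.7% higher at 6 h. CD22, which restrains the B cell receptor, fell from 763 ± 21.3 CPM to 533 ± 11.4 at 3 h and 476 ± 3.97 at 6 h (log2 fold change -0.68, SE 0.0438, edgeR adjusted p = 6.6e-09). CD72 was at a log2 fold change of -0.94 at 6 h (edgeR adjusted p = 6.63e-09), LILRB1, which binds MHC class I, was at -0.63 (edgeR adjusted p = 3.59e-07) and the adaptor SIT1 at -0.62 (edgeR adjusted p = 5.87e-07). BTLA, an inhibitory receptor, was the tested one that rose, from 7.20 CPM to 9.12 and 14.7 (1.03 at 6 h, edgeR adjusted p = 1.11e-08). Among the untested, PDCD1, the inhibitory receptor PD-1, named after its values were seen, had no read at 0 h, 1, 6 and 1 reads at 3 h and 12, 14 and 9 at 6 h. Between 3 h and 6 h the list held 3 higher and 2 lower, where 21.5% of all tested genes were higher and 21.9% lower.

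The enzymes and adaptors that read ITIM and ITAM motifs were all measured. Of 28 genes, 5 were higher and 16 lower at 3 h, and 9 were higher and 15 lower at 6 h against 0 h by the edgeR test, with a median of -0.36 at 6 h. Among all tested genes, 66.3% passed that test at 3 h (32.8% higher, 33.5% lower) and 70.8% at 6 h (35.7% higher, 35.0% lower). PTPN6, the phosphatase SHP-1 that docks on ITIMs, fell from 14.0 ± 1.02 CPM to 5.04 ± 0.366 at 3 h and 3.50 ± 0.293 at 6 h (log2 fold change -2.001, SE 0.0924, edgeR adjusted p = 2.65e-10). PTPN11, another phosphatase on that list, named after its values were seen, went the other way and was far more abundant. It was at 249 CPM at 0 h, 306 at 3 h and 349 at 6 h (log2 fold change 0.49 at 6 h, edgeR adjusted p = 0.000756). INPP5D, the lipid phosphatase SHIP1, fell from 153 CPM to 118 and 79.4 (-0.95 at 6 h, edgeR adjusted p = 3.89e-09), and the adaptor GAB1 was at -1.83 at 6 h (edgeR adjusted p = 1.19e-09). SYK, the kinase that binds ITAMs, was at 450 CPM at 0 h, 415 at 3 h and 556 at 6 h, a log2 fold change of 0.30 at 6 h (edgeR adjusted p = 0.000198). LYN, the kinase that phosphorylates these motifs, was at 0.12 at 6 h (edgeR adjusted p = 0.0309), a direction that turned to -0.028 with upper-quartile factors and -0.12 with library size alone.

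**Figure D4:**
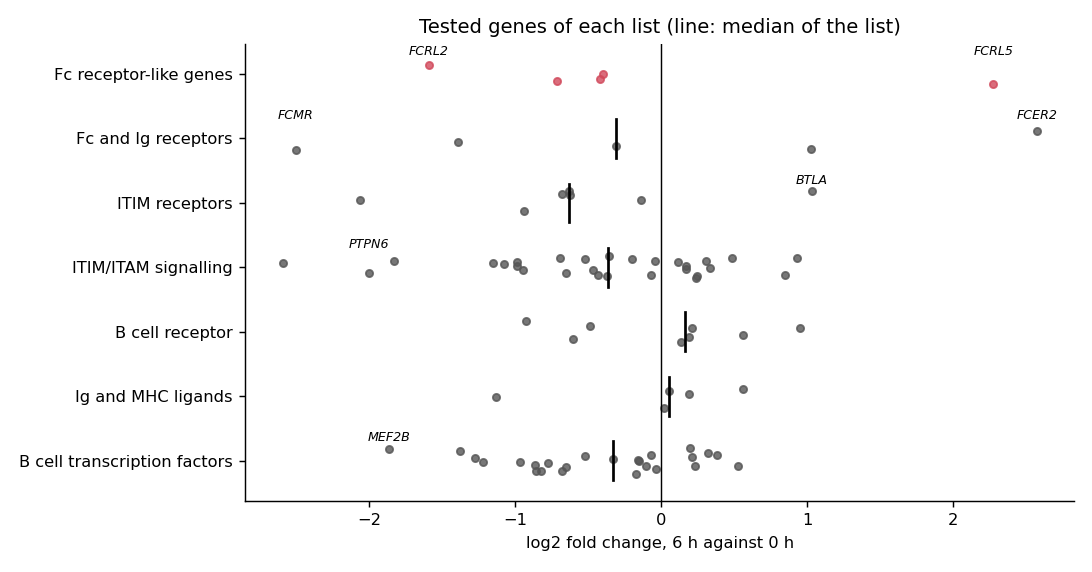
Log2 fold change at 6 h against 0 h of every tested gene of each list (points), with the median of each list other than the Fc receptor-like genes as a vertical line. The Fc receptor-like genes span -1.59 (FCRL2) to 2.28 (FCRL5), and the lists of ITIM receptors and of ITIM and ITAM signalling have medians of -0.63 and -0.36.

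The B cell receptor complex and its co-receptors went both ways. Of 10 listed genes, 8 were tested, and 4 were higher and 3 lower at 6 h against 0 h. Among all tested genes, 35.7% were higher and 35.0% lower in that comparison. MS4A1, which encodes CD20, was at 0.95 (edgeR adjusted p = 3.59e-10) and CD79A, a signalling chain of the receptor, at 0.56 (edgeR adjusted p = 9.84e-06), while CR2, the complement receptor CD21, was at -0.92 (edgeR adjusted p = 3.03e-07). Of 10 immunoglobulin and MHC genes listed as ligands, 5 were tested, with 2 higher and 1 lower at 6 h, beside the same shares of all tested genes. IGHM, the heavy chain of the IgM that Ramos cells carry, was at 0.19 (edgeR adjusted p = 0.0162), which turned to -0.0431 with library size alone.

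Of 25 B cell transcription factors, all were tested, and 6 were higher and 16 lower at 6 h against 0 h, with a median of -0.33. Among all tested genes, 35.7% were higher and 35.0% lower in that comparison. MEF2B fell from 105 CPM to 48.2 at 3 h and 28.7 at 6 h (log2 fold change -1.87, edgeR adjusted p = 2.38e-11), and POU2F2, the octamer-binding factor OCT2, from 147 to 114 and 63.0 (-1.22, edgeR adjusted p = 1.53e-10). BCL6, the germinal centre repressor, was at -0.97 (edgeR adjusted p = 5.45e-10) and PAX5, which maintains B cell identity, at -0.68 (edgeR adjusted p = 6.23e-07). The ETS factors on that list, named after their values were seen, were lower at 6 h for SPIB (-0.82, edgeR adjusted p = 4.92e-08), SPI1 (-0.33, edgeR adjusted p = 0.00506) and ELF1 (-0.17, edgeR adjusted p = 0.0106) and higher for ETS1 (0.23, edgeR adjusted p = 0.0072), which turned to -0.0051 with library size alone. Genes listed for atypical memory B cells, a class in which FCRL5 is known to be high, were summed at 106 to 122 CPM at 0 h, 69.5 to 78.1 at 3 h and 69.9 to 79.2 at 6 h. Nearly all of that sum was CD27, a memory B cell receptor that atypical memory cells often lack, at 110 CPM, 73.2 and 74.1 (log2 fold change -0.57 at 6 h, edgeR adjusted p = 4.64e-06), so the sum is not a measure of that class. Of the other 5 listed genes, ITGAX and FCRL4 had no read, CXCR3 had at most 3 in a library, ZEB2 did not pass the test against 0 h, and TBX21 fell from 1.17 CPM to 0.365 at 3 h and 0.451 at 6 h (-1.37 at 6 h, edgeR adjusted p = 7.27e-05). Of the 6 plasma cell markers, 5 were tested, and at both times against 0 h 3 were higher (XBP1, TNFRSF17 and JCHAIN) and 2 lower (PRDM1 and IRF4) by the edgeR test. That test was passed by 66.3% of all tested genes at 3 h and 70.8% at 6 h. The summed level of these markers was 2455 to 2502 CPM at 0 h, 2779 to 2888 at 3 h and 2979 to 3242 at 6 h, most of it JCHAIN, the joining chain of secreted antibodies, and SDC1, the defining surface marker, had 0 or 1 read in each library. The part of these marker lists in the FCRL5 values was not tested.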

How the data were processed

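RNA from 9 Ramos libraries was counted per gene. Per the submitters' processing notes, the authors used GSNAP 2015-12-31, HTSeq 0.6.0 and limma 3.30.0 with hg19, and deposited a table of raw counts per Ensembl gene; strand and counting mode are not given in the sources used here. Reads of several places (9.89% to 11.7% of each library) and the other 4 HTSeq summary lines were left out. Symbols matched 39539 IDs. The counts were fitted with edgeR 4.0.16 in R 4.3.3 (filterByExpr with a minimum count of 10 and total of 15, TMM factors, robust quasi-likelihood test, all 9 libraries, 6 residual degrees of freedom, Benjamini-Hochberg over 15847 genes at 0.05, two-sided). The fit was tested on simulated data in which few genes changed, so that run cannot speak to the scaling when most genes differ. RPKM used GENCODE exon lengths of another build, as gene names and promoters did. The level that 3 reads correspond to covers counting error only, while SEs come from the fit and include the spread between libraries. The labels call the replicates biological. The members and lists were chosen with earlier results of these data known. Of each list, up to 5 tested genes with the smallest p at 6 h against 0 h could be named, with a few fixed signalling genes, the neighbours and the 5 most similar genes of each member. Alternatives were DESeq2 1.42.0 and limma-voom 3.58.1, other scalings and filters, and leaving out each library.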

Additional observations from a re-analysis of the deposited data

How the results depend on the processing

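No paired analysis was possible because the replicate numbers differ between the times. Of 204 alternative values for the 4 tested members other than FCRL5, 199 kept their direction and their side of the threshold, and of 51 for FCRL5, which has no test, 49 moved by less than 1 SD of the log2 CPM of replicates. Of the others, FCRL2 at 3 h against 0 h ran from -0.45 to -0.35 with 1 library left out (edgeR adjusted p = 0.0562 without 3 h replicate 7), FCRL1 at 6 h against 3 h from -0.30 to -0.0399, and FCRLB at 6 h against 3 h from -0.0451 to 0.22, turning to -0.0451 without 3 h replicate 5 and -0.03 without replicate 6. With library size alone, FCRLA at 6 h against 3 h was -0.11 (edgeR adjusted p = 0.0281) and FCRL5 at 3 h against 0 h -0.37 (-0.33 with upper-quartile factors). The count of members lower at 6 h against 3 h was 2 with library size alone and 1 to 2 with 1 library left out. FCRL5 at 6 h ran from 2.04 to 2.46 against 0 h and from 2.21 to 2.63 against 3 h.

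Scaling set the split of all genes. Of the genes called, 49.5% were higher at 3 h against 0 h, 36.0% with upper-quartile factors and 31.8% with library size alone; at 6 h against 0 h these were 50.5%, 39.2% and 32.8%, with 3656 genes higher under library size alone. The median of all genes moved from -0.01 to -0.22 at 3 h and from 0.02 to -0.22 at 6 h with library size alone, and the falls of members are to be read against that shift. At 6 h against 0 h, LYN turned to -0.028 with upper-quartile factors, and with library size alone LYN was -0.12, ATF6 -0.0754, IGHM -0.0431 and ETS1 -0.0051. Depth limited FCRL3, with at most 10 reads in a library. The cause of these differences was not tested.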
